A study of Mus musculus with 18 samples.

Results

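The data described here are the transcriptomes of E0771 cells carrying the hairpin shCdk8-2 against those carrying a control hairpin (cntrl), both kept in the kinase inhibitor Senexin B (SnxB). The members are the 3 libraries titled for hairpin 1830 under SnxB and the 3 titled for the Renilla hairpin under SnxB, 6 of the 18 libraries of the study. E0771 is a mouse triple-negative mammary tumour cell line. All lines carried a lentiviral CMV-driven firefly luciferase gene kept under puromycin selection, and then a retroviral LENC vector with an mCherry reporter and 1 hairpin, either one against Renilla luciferase, which mouse cells lack (cntrl), or 1 of the Cdk8 hairpins shCdk8-1 and shCdk8-2. Cells were sorted for mCherry and held for 48 h in 1 µM SnxB or in DMSO, with 3 libraries for each of the 6 combinations. Each hairpin is represented by a single transduced and sorted line, and no source states that the 3 libraries of a group came from separate cultures, so the p-values measure the spread between libraries, which may be technical.

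CDK8 is a cyclin-dependent kinase that joins cyclin C, MED12 and MED13 in the kinase module of Mediator, the complex that connects transcription factors with RNA polymerase II. Its paralogue CDK19 occupies the same position, and SnxB blocks the catalytic activity of both while the proteins stay in the cell. A hairpin lowers the messenger RNA and with it the protein, including any part that does not need catalysis. The comparison therefore asks which transcripts differ between cells with less Cdk8 RNA and control cells when the kinase is inhibited in both.

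The 6 libraries held 16578764 to 21978541 counts, and a gene with 3 counts in a library had 0.136 to 0.181 CPM there (CPM being the count scaled to library size), below which levels cannot be told from 0. Replicates differed by more than sampling noise. Library 1 stood apart in both groups: the chi-square of counts per degree of freedom was 11.2 and 8.76 between cntrl library 1 and the other two and 3.03 between those, against 6.39, 6.79 and 1.66 in shCdk8-2. Inside the count files of shCdk8-2, libraries 1, 2 and 3 by label are numbered 2, 3 and 3. Numbering here follows the labels, and so do the hairpin names. The positions of the target sites in the Cdk8 transcript were not tested. Which of the 2 sequences in the study's methods belongs to which hairpin number was therefore not checked. Mitochondrial genes took 0.694 to 1.04% of counts in cntrl and 0.840 to 1.32% in shCdk8-2, lowest in library 1 of each, and histone genes took 0.00288 to 0.00361% against 0.00632 to 0.00675%. Their part in the results was not tested. Of 13 luminal epithelial markers, Krt18, Krt19, Gata3, Elf5, Pgr, Prlr and Csn2 had at most 3 counts in every library of both groups, and so had 4 of 8 basal markers, Krt5, Krt14, Krt17 and Cnn1. The defining keratins of both mammary epithelial lineages were therefore at the detection limit apart from Krt8, described below. The basal markers summed to 457 to 469 CPM in cntrl and 433 to 442 CPM in shCdk8-2, and the 6 endothelial markers to 2.99 to 3.69 CPM against 8.97 to 9.94 CPM. Acta2, whose levels are given below, made up most of the basal sum. Of the 2 basal markers tested, Mylk fell and Acta2 did not pass, with log2 fold changes of -2.59 and 0.00777. Of the 3 endothelial markers tested, 2 rose and 1 fell, with log2 fold changes from -1.98 to 4.31.

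Cdk8 itself (ENSMUSG00000029635, GRCm38 chr5:146231230-146302874, plus strand) was lower in every shCdk8-2 library. It was at 53.6, 54.0 and 57.3 CPM in cntrl and at 36.6, 41.6 and 40.3 CPM in shCdk8-2, a log2 fold change of -0.48 ± 0.0702 (SE, adjusted p = 7.33e-06 from the edgeR quasi-likelihood fit with Benjamini-Hochberg adjustment, as is every adjusted p below). The groups did not overlap, and the transcript fell by 28.2%. Of the 6 tested members of the kinase module list, Cdk19 rose by 0.21 ± 0.0426 on the log2 scale and Med13 fell by 0.26 ± 0.0903 (adjusted p = 0.0198). The call for Med13 was lost without cntrl library 1 (adjusted p = 0.160) and without shCdk8-2 library 2 or 3 (adjusted p = 0.0895 and 0.0576). Ccnc, which encodes cyclin C, differed by 0.01 ± 0.0400 and Med12 by -0.10 ± 0.111, and neither passed. The hairpin shCdk8-1 gave a log2 fold change of -1.25 for Cdk8 against the same cntrl libraries, and tested directly the level in shCdk8-2 was higher than in shCdk8-1 by 0.77 (adjusted p = 4.59e-07).

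A modest fall of Cdk8 RNA stood beside a broad difference in other transcripts. Of 12772 genes tested, 7236 (56.7%) passed an adjusted p of 0.05, 3588 higher and 3648 lower in shCdk8-2, and scaled by library totals instead 4372 were higher and 3111 lower. With a fold change above 2 as well, 1379 genes (10.8%) were called, 644 (5.04%) higher and 735 (5.75%) lower, with a median absolute log2 fold change of 1.74. The median over all genes tested was 0.00698. Counts of list members below use the adjusted p alone, for which the background is 28.1% of genes higher and 28.6% lower. A gene passes the filter on counts if it is expressed in 1 group only, so members that are off in one of the groups enter the counts because they differ, and members low in all groups do not enter. Leaving out library 1 of both groups gave 1353 calls.

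**Figure D1:**
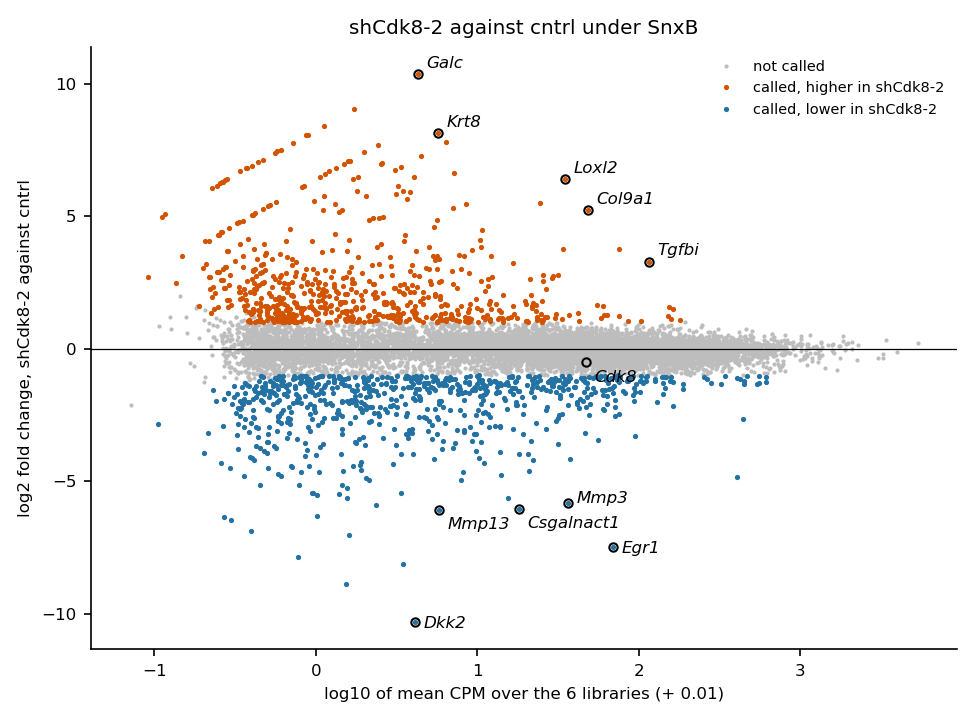
Difference against level for the 12772 genes tested, 1 point per gene. The x axis is the log10 of the mean CPM over the 6 libraries and the y axis the log2 fold change of shCdk8-2 against cntrl under SnxB. The 644 called higher are orange, the 735 called lower are blue, and Cdk8 lies among the points near 0 at -0.48. Fold changes of genes at or under 3 counts in one group depend on the prior count and stretch to the top and bottom at low levels.

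The genes with the largest falls went from a few CPM to the detection limit. Dkk2, a secreted modulator of WNT receptors (chr3:132085292-132180304), was at 9.68, 7.42 and 7.59 CPM in cntrl and at 0 in all 3 shCdk8-2 libraries, at least 49.1-fold lower. Tent5a, a poly(A) polymerase gene, was at 6.94, 6.73 and 6.97 CPM against 0, 0 and 0.0591, at least 41.0-fold lower. In both genes the control libraries lay close together and the knockdown libraries were empty or held a single count. Lower bounds for others in the same position were 18.2-fold for Cpne4, 18.9-fold for the phosphodiesterase gene Pde1a, 11.9-fold for Stox2 and for the neurotrophin receptor gene Ntrk3, and 18.1-fold for the cadherin gene Cdh23 and for Gm45705. The leukocyte immunoglobulin-like receptor genes Lilr4b and Lilrb4a were at least 27.6-fold and 16.0-fold lower. They are near copies of each other, and reads that map to both are left out of the counts, so their levels may be too low.

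Others fell to a low level that was still measurable. Mmp3, which encodes stromelysin-1, was at 76.0, 71.9 and 66.7 CPM in cntrl and at 1.13, 1.08 and 1.60 CPM in shCdk8-2, a log2 fold change of -5.82 ± 0.164 (adjusted p = 1.96e-16). The collagenase gene Mmp13 went from 12.4, 11.4 and 10.6 CPM to 0.197, 0.171 and 0.118 CPM, a change of -6.07 ± 0.226. Both proteases were low in every knockdown library. Csgalnact1, which starts chondroitin sulfate chains, fell by 6.05 ± 0.139, Prickle2, a planar polarity gene, by 5.63 ± 0.173, and Vav1, a guanine nucleotide exchange factor best known from blood cells, by 5.42 ± 0.258.

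The largest rises were the mirror image, genes at the detection limit in cntrl and expressed in shCdk8-2. Galc, the galactosylceramidase gene (chr12:98202304-98259459, minus strand), had no count in the 3 cntrl libraries and stood at 8.77, 8.65 and 8.27 CPM in shCdk8-2, at least 57.9-fold higher. Krt8, the keratin of simple epithelia (chr15:101996711-102004342, minus strand), was at 0, 0.0464 and 0.0513 CPM against 11.3, 11.6 and 11.2 CPM, at least 76.8-fold higher. Nr5a1, the gene of the nuclear receptor SF-1, was at least 86.0-fold higher, at 0.0547, 0.0464 and 0.0513 CPM against 13.5, 13.1 and 11.6 CPM. Within shCdk8-2 these genes varied little from library to library. Lower bounds were 60.5-fold for Slc35g2, 44.8-fold for the tyrosine kinase gene Syk, 34.4-fold for Ccdc85c, 33.9-fold for Thrsp, which is known from fatty acid synthesis, 32.5-fold for Cd302, 26.7-fold for the T-box gene Tbx4, 23.3-fold for C330018D20Rik, 21.7-fold for Cfap97d2, 21.2-fold for Itih2, 19.9-fold for the processed pseudogene AA414768, 17.7-fold for Dab1 and 15.2-fold for Hhipl1.

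**Figure D2:**
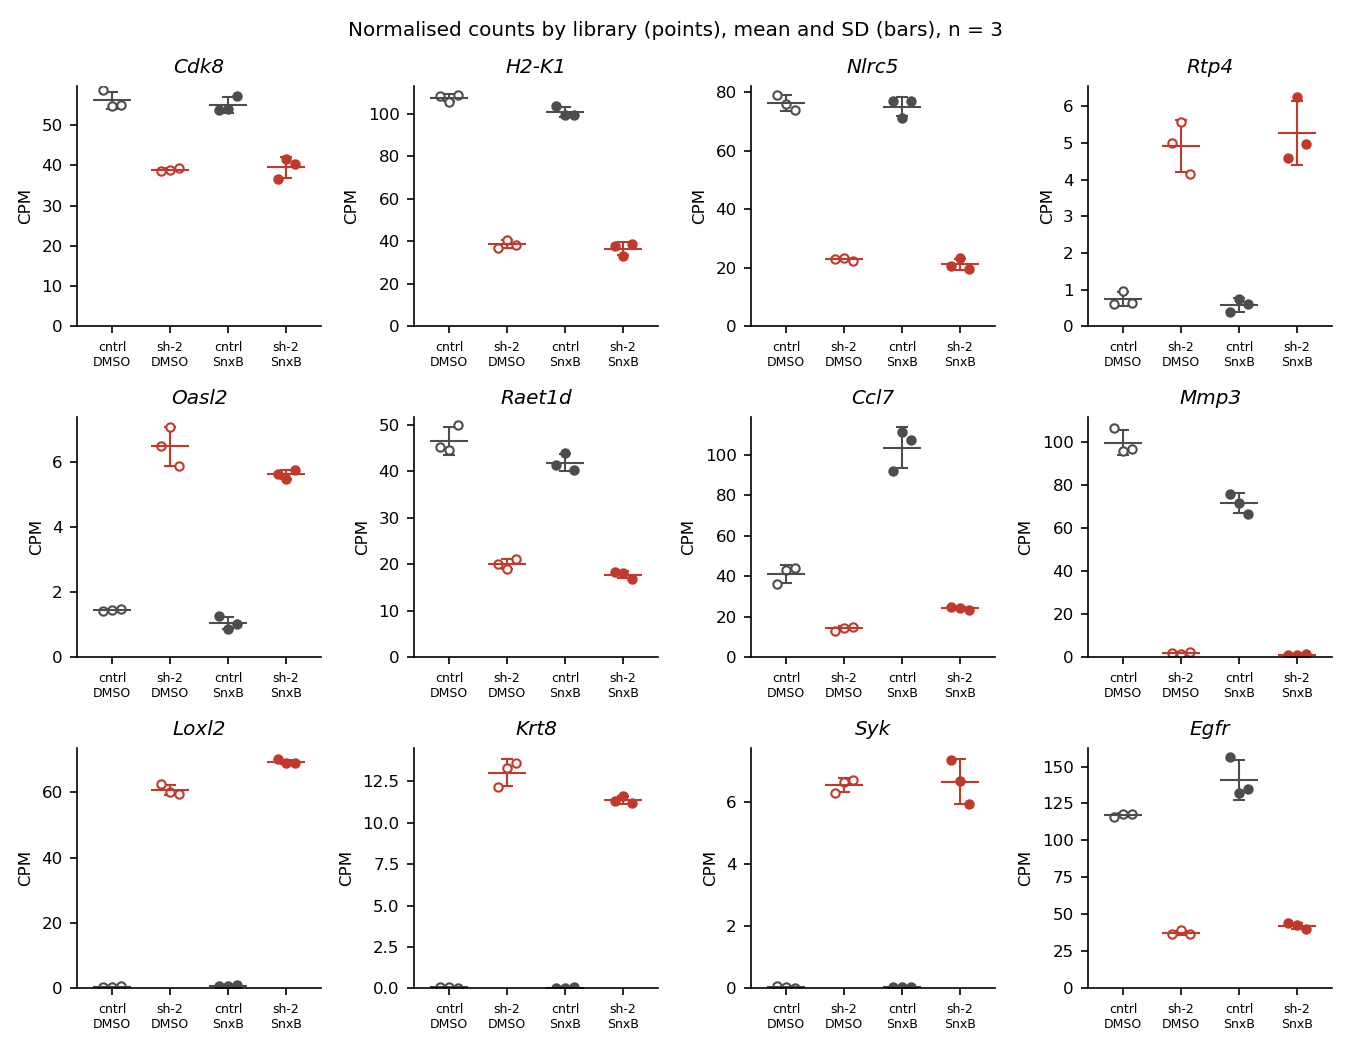
Levels of 12 genes in CPM (y axis, from 0) in each library of cntrl (grey) and shCdk8-2 (red, written sh-2 on the x axis), in DMSO (open points) and under SnxB (filled points). Horizontal lines are means and error bars SD over 3 libraries. In each panel the 3 filled red points lie wholly above or wholly below the 3 filled grey points, as with 36.6 to 41.6 against 53.6 to 57.3 CPM for Cdk8.

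Genes of MHC class I presentation were mostly lower. MHC class I molecules carry peptides to the cell surface with β2-microglobulin, after proteasome cutting and TAP transport, and inhibit natural killer (NK) cells through their receptors. Of 17 members tested, 11 fell, 3 rose and 3 did not pass, with a list median of -0.26. The heavy chain gene H2-K1 (chr17:33996017-34000333, minus strand) was at 104, 99.3 and 99.7 CPM in cntrl and at 37.6, 33.1 and 38.8 CPM in shCdk8-2, a log2 fold change of -1.46 ± 0.0530 (adjusted p = 7.21e-15). H2-D1 went from 588, 585 and 591 CPM to 290, 306 and 300 CPM, a change of -0.98 ± 0.0317. The groups were far apart in both genes, although reads that map to both of these similar heavy chains are left out of the counts.

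The partners of the heavy chain moved in the same direction. B2m fell by 0.82 ± 0.0369, from 652, 626 and 616 CPM to 365, 359 and 351 CPM, and the peptide transporter genes Tap1 and Tap2 fell by 0.87 ± 0.0437 and 0.30 ± 0.0411. Nlrc5, the transactivator of class I genes, was at 77.0, 71.3 and 77.1 CPM against 20.7, 23.3 and 19.6 CPM, a change of -1.82 ± 0.0818 (adjusted p = 1.98e-13). The immunoproteasome subunit gene Psmb9 fell by 1.86 ± 0.159 and Psmb8 by 0.39 ± 0.0490, whereas Psmb10 differed by 0.19 ± 0.0802 and did not pass (adjusted p = 0.0558, and 0.0281 without shCdk8-2 library 1). The peptide editor genes Tapbp and Tapbpl and the proteasome activator gene Psme1 rose, by 0.20 to 0.34, but Tapbpl not without cntrl library 1 (adjusted p = 0.0684) or shCdk8-2 library 2 (adjusted p = 0.0539). Among 4 tested nonclassical class I genes, H2-M3 fell by 1.05 ± 0.0930 and H2-T22 by 0.40 ± 0.0633, while Cd1d1 and Mr1 differed by -0.01 and 0.05 and did not pass.

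Interferon-stimulated genes were mostly higher. These genes encode antiviral sensors and effectors, and many are switched on by STAT2 and IRF9 binding to a promoter element with a pair of TTTC repeats. Of 35 members tested, 27 rose, 1 fell and 7 did not pass, with a list median of 0.88, and 17 of the 27 rose more than 2-fold. Rtp4, a chaperone of receptors, was at 0.383, 0.742 and 0.615 CPM in cntrl and at 4.58, 6.26 and 4.96 CPM in shCdk8-2, a log2 fold change of 3.14 ± 0.267 (adjusted p = 3.77e-09). Oasl2, of the oligoadenylate synthetase family, went from 1.26, 0.882 and 1.03 CPM to 5.62, 5.47 and 5.73 CPM, a change of 2.42 ± 0.186. Even after these rises both transcripts were at a few CPM.

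The promoters of some of these genes carry TTTC, any 2 bases and TTTC again, which reads GAAA, 2 bases and GAAA on the other strand. RefSeq windows of GRCm38.p6, from 250 bases before to 50 after the gene start, were searched on both strands. The motif was in 12 of the 26 list members with a window (46.2%), against 1131 of all 32851 windows (3.44%) and 3.68% of those of genes tested. Among members that rose it was in 8 of 19 (42.1%), among members that did not pass in 3 of 6 (50.0%), and in the 1 that fell. Of the class I genes with a window it was in 3 of 14 (21.4%), and in 1 of the 9 that fell (11.1%), which is B2m. The following 30-base stretches run 5′ to 3′ on the strand of the gene, with 1 match of the motif in capitals. Those of Isg15 and Oas1a also hold a further match that overlaps the one in capitals. The stretches are shown for 5 members that rose, then for Stat2, which did not pass, Oas1a, which fell, and the class I gene B2m, which fell.
Ifit1: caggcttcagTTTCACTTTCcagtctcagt
Oas3: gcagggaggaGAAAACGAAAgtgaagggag
Isg15: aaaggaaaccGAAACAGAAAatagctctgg
Rsad2: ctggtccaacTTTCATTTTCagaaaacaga
Gbp2: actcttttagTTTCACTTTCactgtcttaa
Stat2: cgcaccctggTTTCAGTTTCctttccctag
Oas1a: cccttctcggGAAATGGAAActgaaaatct
B2m: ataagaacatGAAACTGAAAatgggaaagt

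In these windows the match in capitals began 104 bases before the start of Ifit1 (chr19:34640775-34640804, plus strand), 75 before Oas3 (chr5:120777715-120777744, minus), 66 before Isg15 (chr4:156200865-156200894, minus), 120 before Rsad2 (chr12:26456553-26456582, minus) and 59 before Gbp2 (chr3:142620594-142620623, plus). It lay 222 bases before Stat2 (chr10:128270266-128270295, plus), 20 before Oas1a (chr5:120907526-120907555, minus) and 139 before B2m (chr2:122147538-122147567, plus). Further matches began 85 bases before Ifit1 and 72 and 78 bases before Isg15. A match of letters describes the sequence and does not show binding.

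With this motif in view, the values of the printed genes were as follows. Ifit1, which binds foreign RNA ends, was at 1.80, 1.67 and 1.59 CPM in cntrl and at 4.34, 5.52 and 4.37 CPM in shCdk8-2, a rise of 1.49 ± 0.189. Oas3, which makes the second messenger that activates RNase L, went from 0.820, 0.650 and 0.769 CPM to 3.20, 3.19 and 2.78 CPM, a rise of 2.04 ± 0.244. Both were higher in every knockdown library. Rsad2, Gbp2 and Isg15 rose by 1.30 ± 0.150, 1.80 ± 0.341 and 0.65 ± 0.137. Stat2 was at 24.7 ± 0.0898 CPM against 21.6 ± 2.27 CPM (SD, n = 3), a difference of -0.19 ± 0.110 that did not pass (adjusted p = 0.144), though it did without a filter on counts (0.0288) and with only the groups compared fitted (0.0449). Oas1a fell by 0.43 ± 0.159 (adjusted p = 0.0247). The call for Oas1a was lost without cntrl library 3 (adjusted p = 0.108) and without shCdk8-2 library 1 (adjusted p = 0.201). Reads that map to several near copies in the Ifit, Oas and Gbp families are left out, so these levels may be too low.

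Among the regulators and sensors on the list, Irf7 and Irf9 rose by 1.19 ± 0.242 and 0.57 ± 0.0802, and the RNA sensor genes Ifih1 and Dhx58 rose by 1.36 ± 0.102 and 1.54 ± 0.222. Irf1 differed by 0.10 ± 0.0773 and the sensor gene Ddx58 by -0.02 ± 0.0837, and neither passed. Mx1, Usp18 and Parp14 rose by 2.79 ± 0.387, 1.66 ± 0.232 and 1.12 ± 0.157. The class I and interferon lists thus had medians on opposite sides of the median of all genes.

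**Figure D3:**
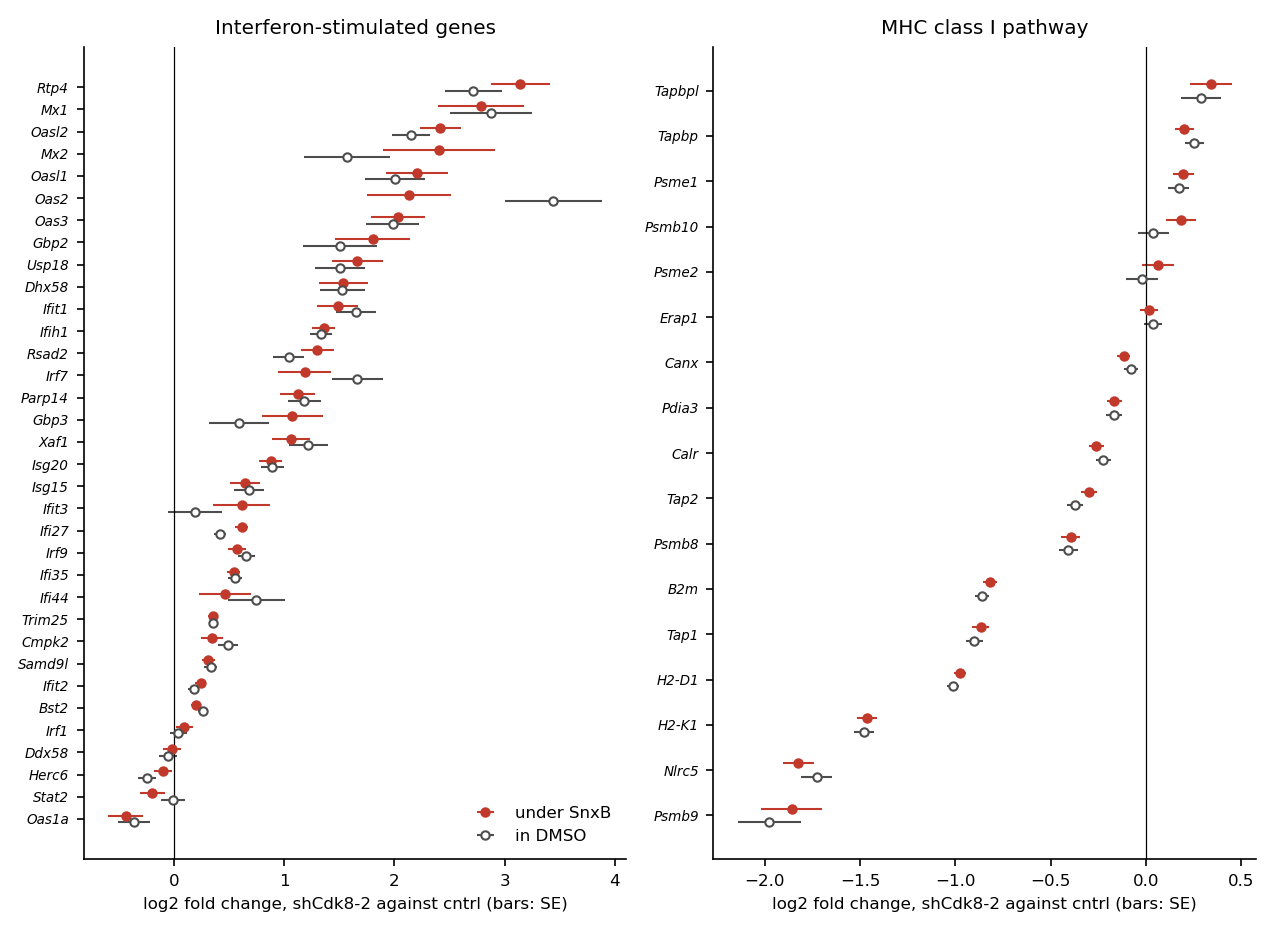
Log2 fold change of shCdk8-2 against cntrl (x axis) for 34 of the 35 interferon-stimulated genes (left) and 17 class I pathway genes (right) tested, under SnxB (filled red) and in DMSO (open grey), with SE as bars. Most interferon-stimulated genes lie right of 0, up to 3.14 for Rtp4 under SnxB, and the class I genes reach -1.86 for Psmb9.

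Upstream of both lists, the JAK-STAT genes, which carry signals of interferons and interleukins, changed by little. Of 17 tested, 9 fell, 2 rose and 6 did not pass. The receptor genes Ifngr1, Ifnar1 and Il6st fell by 0.45 ± 0.0628, 0.31 ± 0.0456 and 0.50 ± 0.0657, and Jak1 and Stat3 by 0.38 ± 0.0499 and 0.33 ± 0.0454. Osmr, a receptor gene of the interleukin-6 family, rose by 2.02 ± 0.262 from 0.437, 0.278 and 0.513 CPM to 1.68, 2.11 and 1.18 CPM, and the inhibitor gene Socs3 rose by 0.50 ± 0.0749. Socs1, another inhibitor, fell by 0.27 ± 0.0833, but not without shCdk8-2 library 1 (adjusted p = 0.0617).

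Ligands read by NK and T cells divided, with 9 of 13 tested lower and 4 higher and a list median of -0.61. The NKG2D ligand genes, which mark stressed cells for NK cells, were lower: Raet1d went from 41.3, 44.0 and 40.3 CPM to 18.4, 18.1 and 16.8 CPM, a change of -1.23 ± 0.0661 (adjusted p = 3.23e-12), Raet1e fell by 1.13 ± 0.0729 and Ulbp1 by 0.61 ± 0.0550. The 2 Raet1 genes are close paralogues, and reads that map to both are left out of the counts, so their levels may be too low. Nectin2 and Pvr, the ligands of DNAM-1, fell by 0.79 ± 0.0844 and 0.29 ± 0.0475. Clec2d, which encodes a ligand of an inhibitory NK receptor, fell by 1.42 ± 0.120, the checkpoint gene Cd274 (PD-L1) by 0.81 ± 0.142 and Cd47, a signal against engulfment, by 0.25 ± 0.0434. The adhesion ligand gene Icam1 was higher in every knockdown library, at 1.09, 1.86 and 1.44 CPM against 5.91, 7.06 and 6.91 CPM (2.15 ± 0.158, adjusted p = 4.06e-10). By contrast, Icam2 fell by 2.61 ± 0.401 at a low level, with at most 29 counts in any of the 6 libraries. Nectin3, Lgals9 and Cd276 rose by 0.29 to 0.42.

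Signalling genes better known from immune cells also moved in this tumour line, 11 of 19 lower and 6 higher. Besides Vav1, the adaptor genes Lcp2 and Lat2 fell by 1.42 ± 0.144 and 2.23 ± 0.247, and the β2 integrin gene Itgb2 went from 23.8, 22.9 and 23.8 CPM to 7.19, 5.52 and 5.91 CPM, a change of -1.91 ± 0.115. The Src-family genes Fyn and Lyn fell by 0.60 ± 0.0454 and 0.62 ± 0.0528. Syk was at 0.0547, 0.0464 and 0.0513 CPM against 7.34, 6.66 and 5.91 CPM, and its substrate gene Plcg2 rose by 1.68 ± 0.198, so this kinase and its substrate were higher while the adaptors were lower. The 12 leukocyte markers summed to 9.50 to 10.6 CPM in cntrl and 3.82 to 5.26 CPM in shCdk8-2, but they did not move together. Of the 3 tested, 1 rose, 1 fell and 1 did not pass, with log2 fold changes from -3.22 to 2.0. Cd3e, Adgre1, Itgam, Ncr1 and Nkg7 had at most 3 counts in every library of both groups, and Ptprc and Csf1r in shCdk8-2. In bulk samples, fewer cells of a type and less RNA per cell cannot be told apart.

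Secreted signals to other cells were mostly lower. Of 12 chemokine and cytokine genes tested out of 29 listed, 8 fell, 7 of them by more than 2-fold, 2 rose and 2 did not pass, with a list median of -1.41. The monocyte attractant genes Ccl7 and Ccl2 went from 92.1, 111 and 107 CPM to 24.8, 24.5 and 23.2 CPM (-2.10 ± 0.0795) and from 63.8, 72.7 and 74.1 CPM to 24.3, 26.4 and 25.3 CPM (-1.47 ± 0.0753). The NK cell growth factor gene Il15 fell by 2.94 ± 0.340 at a low level, with at most 36 counts in any of the 6 libraries. Il18 fell by 1.51 ± 0.193, Il33 by 1.53 ± 0.164, Lif by 1.55 ± 0.195, the membrane-bound Cx3cl1 by 1.35 ± 0.0814 and Csf1, the macrophage growth factor gene, by 0.83 ± 0.0388. Cxcl10, itself an interferon-stimulated chemokine gene, rose by 0.84 ± 0.226. Cxcl16 rose by 1.62 ± 0.515, with groups that overlapped and levels near 1 CPM or below, and did not pass without cntrl library 2 (adjusted p = 0.0595) or shCdk8-2 library 2 (adjusted p = 0.0706).

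The NF-κB list, whose transcription factors drive many such cytokine genes, had 11 of 18 members lower, 2 higher and 5 that did not pass, with a median of -0.33. Traf1 fell most, from 19.6, 19.9 and 19.9 CPM to 3.20, 3.87 and 3.66 CPM (-2.47 ± 0.111, adjusted p = 2.12e-13). The subunit genes Nfkb1, Nfkb2 and Rela fell by 0.72 ± 0.0378, 0.40 ± 0.0393 and 0.22 ± 0.0388, and the inhibitor gene Nfkbie and the kinase gene Ikbke by 1.24 ± 0.0993 and 1.21 ± 0.109. Tnfaip3, a feedback inhibitor gene, differed by 0.08 ± 0.116 and did not pass.

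Immediate early and AP-1 genes, the first transcripts to respond to growth factors, had 15 of 19 tested members lower, 2 higher and 2 that did not pass, with a median of -0.47. Jun was at 187, 185 and 187 CPM in cntrl and at 101, 93.4 and 98.5 CPM in shCdk8-2 (-0.93 ± 0.0542). Fosl2, Fosl1 and Junb fell by 0.78 ± 0.0483, 0.40 ± 0.0497 and 0.44 ± 0.0887, and the feedback inhibitor genes of ERK signalling Spry4, Dusp6 and Dusp4 by 1.21 ± 0.0646, 0.78 ± 0.0583 and 0.79 ± 0.0443. Myc and Dusp5 rose by 0.49 ± 0.0403 and 0.92 ± 0.0739. Egr1 rests on 1 library: it was at 0.383, 415 and 0.820 CPM in cntrl (7, 8937 and 16 counts) and at 0.788, 0.683 and 0.886 CPM in shCdk8-2, and the groups overlapped. Its fitted change of -7.46 ± 1.68 (adjusted p = 0.000757) became 0.36 (adjusted p = 0.481) without cntrl library 2, which left 14 members lower.

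Regulators of the epithelial-mesenchymal transition were lower, with 9 of 11 tested falling and 2 not passing, and a list median of -0.39. The repressor genes Zeb1 and Zeb2 went from 231, 214 and 207 CPM to 148, 144 and 141 CPM (-0.59 ± 0.0423) and from 253, 228 and 230 CPM to 157, 146 and 151 CPM (-0.64 ± 0.0534). Snai2 fell by 1.93 ± 0.403 at a low level, from 1.42, 1.25 and 0.923 CPM to 0.345, 0.512 and 0.0591 CPM. Twist2, Twist1 and Prrx1 fell by 0.33 to 0.48, and the metastasis-associated S100a4 by 0.83 ± 0.0874. Snai1 differed by 0.23 ± 0.102 and did not pass (adjusted p = 0.0631, and 0.0315 without shCdk8-2 library 3), and Vim, the mesenchymal filament gene, fell by 0.13 ± 0.0365 with an adjusted p of 0.00413, or 0.0616 when scaled by library totals.

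On the epithelial side, only 12 of 34 listed keratin and junction genes passed the filter on counts, of which 8 rose, 2 fell and 2 did not pass, with a median of 0.55. After Krt8, the largest rise at a measurable control level was that of Jup, the plakoglobin gene of desmosomes and adherens junctions, from 8.07 ± 1.87 CPM to 55.1 ± 4.88 CPM (SD, n = 3), a log2 fold change of 2.78 ± 0.0983. Pkp2 rose by 0.59 ± 0.0651, and the tight junction gene Ocln fell by 0.97 ± 0.108. Cdh1, the E-cadherin gene, was at 0, 0.139 and 0.256 CPM against 0.493, 0.740 and 0.650 CPM (2.15 ± 0.602, adjusted p = 0.00453), under 1 CPM throughout, and the usual partner of Krt8, Krt18, stayed at or under 3 counts.

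**Figure D4:**
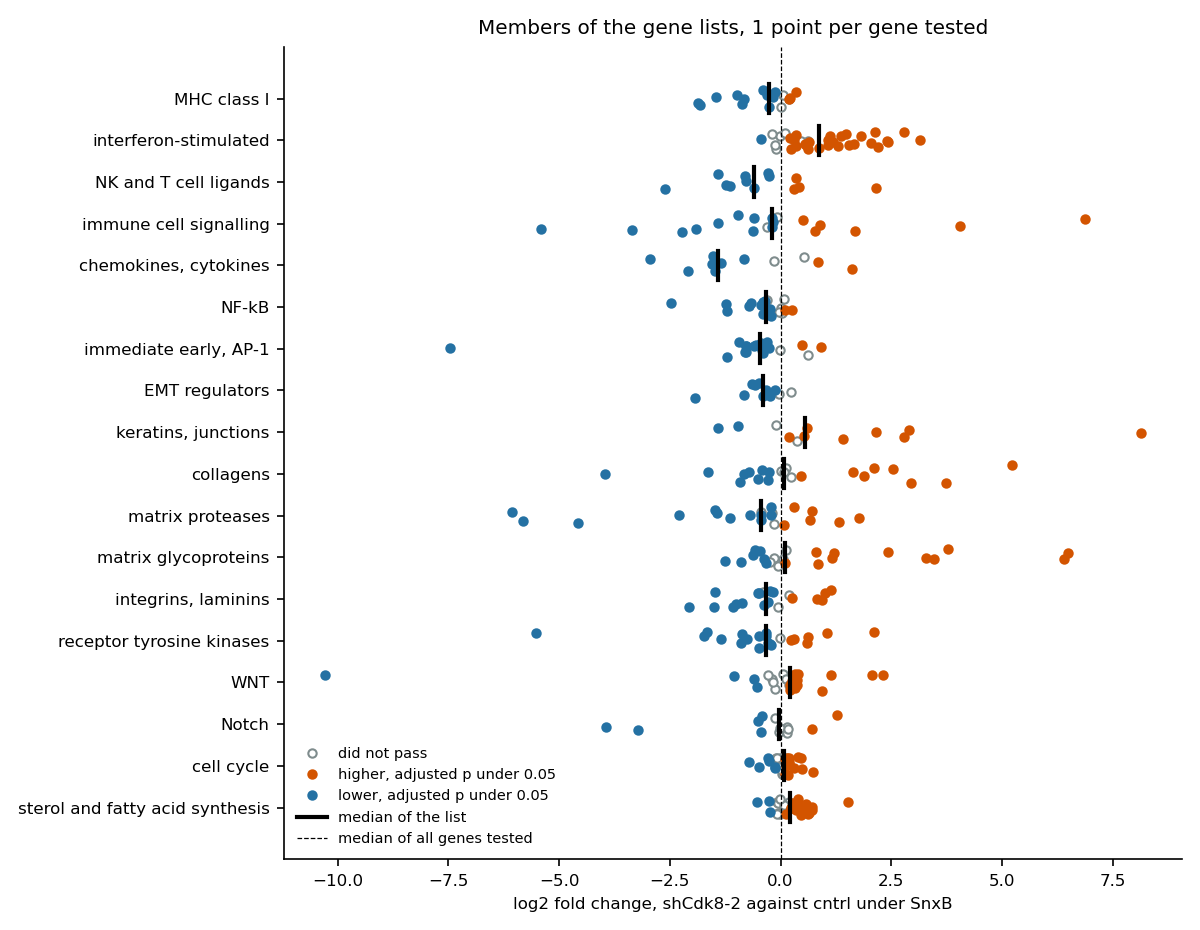
Log2 fold change of shCdk8-2 against cntrl under SnxB (x axis) for the tested members of 18 gene lists (y axis), 1 point per gene, orange or blue where higher or lower at an adjusted p under 0.05 and open where not passed. Thick bars are list medians, from -1.41 for chemokines and cytokines to 0.88 for interferon-stimulated genes, and the dashed line is the median of all genes, 0.00698.

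The extracellular matrix was altered in both directions. Of 21 collagen genes tested, 8 rose, 9 fell and 4 did not pass. Col9a1, a collagen of cartilage, was at 2.95, 1.76 and 2.87 CPM in cntrl and at 103, 88.6 and 90.4 CPM in shCdk8-2 (5.23 ± 0.0991, adjusted p = 4.55e-19), and the fibrillar Col1a1 went from 1.97, 0.974 and 1.03 CPM to 17.3, 17.9 and 16.6 CPM (3.73 ± 0.168). The abundant basement membrane genes Col4a1 and Col4a2 fell by 0.71 ± 0.0590 and 0.92 ± 0.0631, the fibrillar Col3a1 by 0.43 ± 0.0424 and Col6a3 by 1.63 ± 0.168. Apart from Col6a2, the collagens that rose were under 3 CPM on average in cntrl, and apart from Col2a1 and Col8a1 those that fell were far more abundant there. The call for Col2a1 was lost without cntrl library 2 or 3 or shCdk8-2 library 1 or 3 (adjusted p from 0.0535 to 0.213). The 10 fibroblast markers summed to 3070 to 3330 CPM in cntrl and 2410 to 2480 CPM in shCdk8-2, and Fap, Postn and Thy1 had at most 3 counts in every library of both groups. Of the 6 fibroblast markers tested, 2 rose, 3 fell and 1 did not pass.

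Of 23 matrix glycoprotein and crosslinking genes, 11 rose, 7 fell and 5 did not pass. Loxl2, a collagen-crosslinking lysyl oxidase gene (chr14:69609068-69695834, plus strand), was at 0.711, 0.696 and 1.03 CPM against 70.1, 69.0 and 68.9 CPM, a rise of 6.41 ± 0.0852 (adjusted p = 1.78e-21). Tgfbi went from 19.6, 22.5 and 22.1 CPM to 215, 209 and 207 CPM (3.29 ± 0.0590), and Thbs2, which encodes thrombospondin-2, from 5.41, 3.94 and 4.51 CPM to 65.9, 61.6 and 61.8 CPM (3.78 ± 0.0920). The spread within each group was a small part of these differences. Tnc (tenascin C) and Spp1 (osteopontin) fell by 1.25 ± 0.114 and 0.89 ± 0.0606. Hspg2, the perlecan gene, was at 806, 470 and 551 CPM in cntrl and at 643, 478 and 419 CPM in shCdk8-2, highest in library 1 of each, and did not pass (-0.24 ± 0.199).

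Proteases that remodel the matrix fell more often than they rose, 12 against 6 of 21 tested, with 3 that did not pass. Beside Mmp3 and Mmp13, Mmp10 was at least 21.8-fold lower, and Mmp9, the gelatinase gene, went from 10.1, 9.09 and 9.59 CPM to 3.75, 5.58 and 3.72 CPM (-1.14 ± 0.148). The plasminogen activator genes Plat and Plau fell by 1.43 ± 0.0714 and 0.45 ± 0.0676. The other gelatinase gene, Mmp2, rose from 19.7, 15.8 and 17.7 CPM to 44.5, 42.8 and 44.1 CPM (1.31 ± 0.0637), and Mmp28 by 1.76 ± 0.173. Timp1 differed by -0.20 ± 0.0918 and did not pass, except without shCdk8-2 library 2 (adjusted p = 0.0253).

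Receptors for the matrix followed a like pattern, with 12 of 20 integrin and laminin genes lower, 5 higher and 3 not passing. Itgb7 went from 64.7, 68.0 and 66.9 CPM to 15.8, 16.5 and 15.5 CPM (-2.06 ± 0.0581). Itga6, Itga1 and Itgb1 fell by 0.87 ± 0.0476, 1.08 ± 0.0845 and 0.51 ± 0.0392, and the laminin chain gene Lama5 by 1.01 ± 0.115, while the hemidesmosome gene Itgb4 rose by 0.94 ± 0.102.

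Among receptor tyrosine kinases, 14 of 21 tested fell, 6 rose and 1 did not pass, with a median of -0.33. Egfr went from 156, 132 and 135 CPM to 43.9, 42.9 and 40.2 CPM (-1.73 ± 0.0893), Met from 689, 618 and 616 CPM to 272, 243 and 243 CPM (-1.34 ± 0.0574) and Fgfr1 from 847, 804 and 797 CPM to 432, 428 and 455 CPM (-0.90 ± 0.0412). All 3 were lower in every knockdown library. Pdgfrb, Mertk and Fgfr3 fell by 0.77 ± 0.0594, 0.87 ± 0.0950 and 1.66 ± 0.150. The collagen receptor gene Ddr1 rose by 1.04 ± 0.0505 and Igf1r by 0.30 ± 0.0985, the latter not without cntrl library 2 or 3 or shCdk8-2 library 1 (adjusted p = 0.0838, 0.0529 and 0.0568). Axl, at 532, 494 and 504 CPM against 512, 513 and 496 CPM, differed by -0.01 ± 0.0376.

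In the WNT list, 12 of 23 tested members rose, 4 fell and 7 did not pass, with a median of 0.22. The ligand genes Wnt10b and Wnt6 rose by 2.31 ± 0.163 and 2.06 ± 0.129, from 1.64, 3.11 and 2.67 CPM to 10.6, 13.1 and 13.9 CPM and from 2.08, 2.23 and 2.00 CPM to 9.17, 8.37 and 8.74 CPM. The receptor genes Fzd2 and Lrp5 rose by 0.94 ± 0.0869 and 0.37 ± 0.0623, β-catenin (Ctnnb1) by 0.33 ± 0.0363 and the nuclear partner gene Tcf7 by 1.14 ± 0.0829. Besides Dkk2, Apc and the receptor gene Fzd5 fell by 0.59 ± 0.0745 and 0.53 ± 0.0645. Axin2, a usual target gene, rose by 0.32 ± 0.102 (adjusted p = 0.0104), and did not pass without shCdk8-2 library 3 (adjusted p = 0.0553).

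Of 13 Notch genes tested, 5 fell, 2 rose and 6 did not pass. The ligand gene Dll1 went from 18.8, 16.6 and 16.5 CPM to 2.12, 1.59 and 1.83 CPM (-3.21 ± 0.122) and the receptor gene Notch4 from 7.38, 5.24 and 6.41 CPM to 0.444, 0.399 and 0.355 CPM (-3.95 ± 0.204), whereas Notch2 differed by 0.14 ± 0.111 and did not pass, though it did without cntrl library 1 (adjusted p = 0.0245). The target gene Hes1 rose by 0.71 ± 0.0600 and Nrarp fell by 0.45 ± 0.102. In the TGFβ and BMP list, 11 of 29 rose, 12 fell and 6 did not pass. The type II receptor gene Tgfbr2 was the member that fell most, from 97.4, 91.5 and 88.3 CPM to 34.3, 28.5 and 32.5 CPM (-1.54 ± 0.0575), and the ligand gene Tgfb3 rose by 0.70 ± 0.0522. Outside these pathways, the oestrogen receptor gene Esr1, listed as a luminal marker, fell from 24.2, 18.2 and 20.1 CPM to 1.18, 0.911 and 1.00 CPM (-4.31 ± 0.176).

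Cell cycle genes differed little. Of 35 tested, 15 rose, 6 fell and 14 did not pass, and the changes ran from -0.71 (Rb1) to 0.73 (Ccne1). Ccnd1, the cyclin of early G1, went from 780, 705 and 717 CPM to 522, 519 and 520 CPM (-0.50 ± 0.0388), Ccne1, that of the G1/S transition, from 62.0, 64.8 and 61.7 CPM to 105, 108 and 101 CPM, and the replication licensing genes Mcm4 and Mcm7 rose by 0.40 ± 0.0335 and 0.31 ± 0.0383. The proliferation marker Mki67 differed by -0.10 ± 0.130 and did not pass. Of 18 p53 pathway and CDK inhibitor genes, 10 fell, 4 rose and 4 did not pass. Pmaip1, which encodes the BH3-only protein NOXA, went from 12.9, 14.2 and 13.2 CPM to 1.33, 2.16 and 1.36 CPM (-3.06 ± 0.147), while the BH3-only gene Bbc3 and the death effector gene Bax differed by -0.06 and 0.03 and did not pass. Mdm2 fell by 0.39 ± 0.0411 and Cdkn1a rose by 0.17 ± 0.0513, but not without cntrl library 2 (adjusted p = 0.0663).

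Of 20 tested genes of death receptors and survival, 9 fell, 3 rose and 8 did not pass. The necroptosis genes Ripk3 and Mlkl went from 72.6, 72.6 and 75.0 CPM to 37.4, 35.6 and 35.3 CPM (-1.02 ± 0.0412) and from 202, 193 and 194 CPM to 114, 108 and 113 CPM (-0.81 ± 0.0366). The survival genes Bcl2 and Bcl2l1 fell by 0.97 ± 0.0737 and 0.36 ± 0.0433, and Mcl1 differed by 0.03 ± 0.0379. The ligand gene Tnfsf10 (TRAIL) and its receptor gene Tnfrsf10b rose by 1.76 ± 0.295 and 0.50 ± 0.0635.

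Sterol and fatty acid synthesis genes had 16 of 30 members higher, 3 lower and 11 that did not pass, with a median of 0.22. Hmgcs1 and Fdft1 of the cholesterol pathway rose by 0.70 ± 0.0390 and 0.71 ± 0.0584. Tested directly against shCdk8-1 under SnxB, 26 of the 30 were lower in shCdk8-2, where 10.3% of all genes were lower, and 4 did not pass. Each hairpin's own comparison with the same cntrl libraries gave 16 and 3 members higher and lower for shCdk8-2, and 23 and 1 for shCdk8-1, whose comparison passed 60.6% of all genes, 30.5% higher and 30.1% lower.

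The same contrast in DMSO shares no library with the one under SnxB. In DMSO 7289 genes (57.1%) passed the adjusted p and 1407 (11.0%) were called, 647 (5.07%) higher and 760 (5.95%) lower. Both contrasts called 1187 genes, which is 86.1% of the calls under SnxB and 84.4% of those in DMSO, and all 1187 had the same direction. The log2 fold changes of both contrasts had a Pearson r of 0.942 across genes, a description, since genes are no independent replicates. Of the 192 genes called only under SnxB, 102 did not pass the adjusted p in DMSO, and the difference between contrasts has its own test, the interaction of hairpin and inhibitor. The median size of the interaction was 0.0765 and its 95th percentile 0.631, with a median SE of 0.100. An interaction has to be several times its SE to pass the adjustment over all genes, so differences well above 0.100 could be missed.

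The interaction passed an adjusted p of 0.05 in 7 genes (0.0548%), 1 (0.00783%) higher and 6 (0.0470%) lower. Of these, 2 (0.0157%) exceeded 2-fold, 1 in each direction (0.00783%). Under an unadjusted p of 0.05 were 748 genes (5.86%). Ppp1r16b, a regulatory subunit gene of protein phosphatase 1, was lower in shCdk8-2 in DMSO, at 0.827, 0.970 and 1.04 CPM against 4.19, 3.52 and 2.74 CPM. Under SnxB it was at 2.81, 1.54 and 2.19 CPM against 2.41, 2.41 and 2.56 CPM, with overlapping groups, and the interaction was 1.71 ± 0.291 (adjusted p = 0.0304). Atp6v0a4, a proton pump subunit gene, was at 3.74, 3.98 and 3.29 CPM in shCdk8-2 against 0.739, 0.759 and 0.784 CPM in cntrl in DMSO, and at 4.29, 5.24 and 4.96 CPM against 2.84, 2.46 and 2.97 CPM under SnxB, an interaction of -1.46 ± 0.235 (adjusted p = 0.0232). Acta2, the smooth muscle actin gene, had the lowest adjusted p (0.000675): it was at 421, 426 and 410 CPM in cntrl and 425, 424 and 415 CPM in shCdk8-2 under SnxB, but at 133, 148 and 145 CPM and 207, 216 and 202 CPM in DMSO. For that gene SnxB stood beside a higher level in both lines, and the hairpin difference seen in DMSO was not seen under SnxB (0.01 ± 0.0441 against 0.55 ± 0.0459). The other 4, Cbr2, Ereg, Gas7 and Pgbd5, were named after their values were seen and had interactions of -0.51, -0.43, -0.37 and -0.31.

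**Figure D5:**
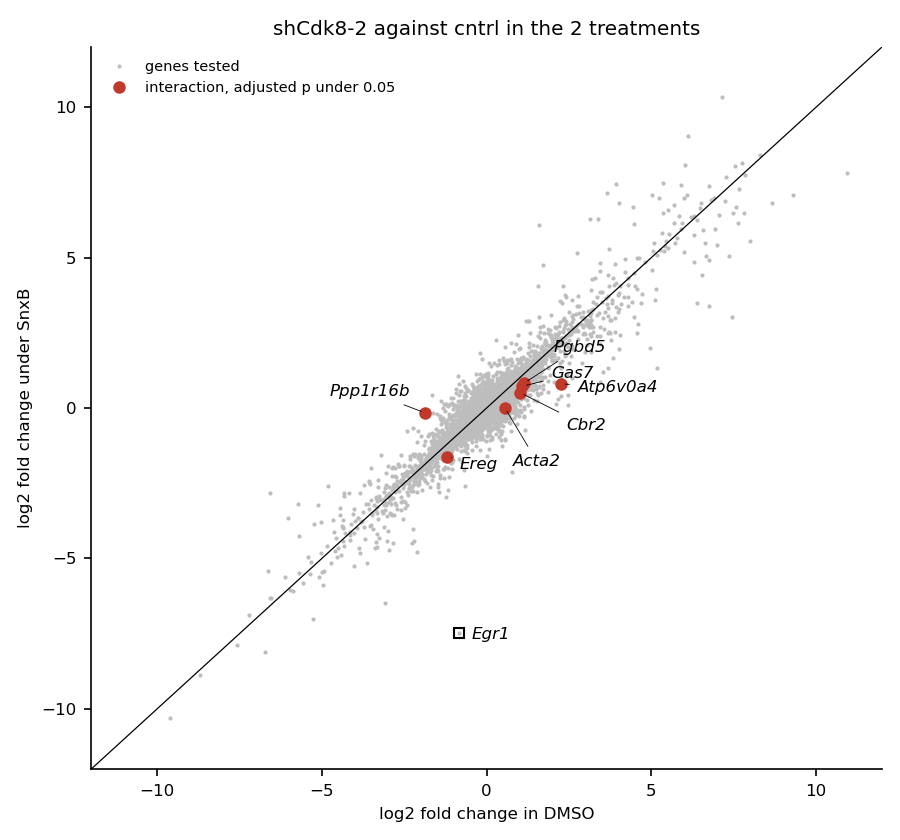
Log2 fold change of shCdk8-2 against cntrl under SnxB (y axis) against that in DMSO (x axis), 1 grey point per gene tested, with the diagonal of equal change. The 7 genes whose interaction passed are red, among them Acta2 at 0.55 in DMSO and 0.01 under SnxB, and Egr1 (square), at -7.46 under SnxB, rests on 1 cntrl library.

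Counts by list were alike in both treatments for the interferon-stimulated and class I genes. Of the interferon-stimulated genes 27 rose in DMSO, as under SnxB, and 2 fell. Their interactions ran from -1.31 to 0.84, and 0 of 35 passed by edgeR or by DESeq2, with 1 at an unadjusted p under 0.05. The 17 class I genes had 3 higher and 10 lower in DMSO, with interactions from -0.10 to 0.15, of which 0 passed by either tool or at an unadjusted p under 0.05. For Cdk8 the interaction was 0.05 ± 0.0990 (adjusted p = 0.994), from 58.6, 54.8 and 55.1 CPM in cntrl and 38.5, 38.9 and 39.2 CPM in shCdk8-2 in DMSO. The NK and T cell ligand list had 4 members higher and 9 lower in both treatments, the NF-κB list 2 and 11, and the chemokine and cytokine list 2 and 8. Some other lists differed more in their counts, and the 3 that follow were picked for that difference. The glycolysis and hypoxia list had 7 members higher and 9 lower under SnxB but 11 higher and 6 lower in DMSO, the epithelial-mesenchymal transition list 0 and 9 against 1 and 6, and the death receptor list 3 and 9 against 2 and 12. By edgeR 0 interactions passed in these 3 lists, and DESeq2 passed 1 in the first. At an unadjusted p under 0.05 edgeR had 8 of 28, 2 of 11 and 5 of 20, against 5.86% of all genes. Among the 12 chemokine and cytokine genes 0 interactions passed by edgeR, 3 were under an unadjusted p of 0.05 and 1 passed by DESeq2. A test that does not pass leaves differences of several times its SE possible.

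The hairpins were also tested against each other under SnxB. Between shCdk8-2 and shCdk8-1, 2674 genes (20.9%) passed and 268 (2.10%) were called, 162 (1.27%) higher and 106 (0.830%) lower in shCdk8-2. Itih2, among the largest rises, was at 3.10, 2.90 and 3.43 CPM in shCdk8-2 and at 0.108, 0 and 0 CPM in shCdk8-1 (adjusted p = 9.49e-09). Dab1 was at 2.86, 1.82 and 3.19 CPM against 0.0538, 0 and 0 CPM (adjusted p = 4.89e-07), so both were at the detection limit in shCdk8-1 as in cntrl. Galc, Loxl2 and Tgfbi differed between the hairpins by -0.22, -0.07 and -0.01 and did not pass. Spp1 was lower in shCdk8-2 than in shCdk8-1 by 1.04 (adjusted p = 3.00e-10), and H2-K1 was lower by 0.72 (adjusted p = 1.28e-08), although Cdk8 was higher in shCdk8-2. Pmaip1 had no count in the 3 shCdk8-1 libraries, against 1.33, 2.16 and 1.36 CPM in shCdk8-2 (adjusted p = 2.28e-07).

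By list, 9 of 17 class I genes differed between the hairpins, where 20.9% of all genes did, 7 higher and 2 lower in shCdk8-2 with a list median of 0.16, so that H2-K1 was in the minority. Of the NK and T cell ligands, 7 of 13 were higher in shCdk8-2, where 10.6% of all genes were, including Icam1 (0.88) and Cd274 (0.58). Of the chemokine and cytokine genes 6 of 12 were higher in shCdk8-2. The interferon-stimulated genes differed by -0.35 to 0.74, and 0 of 35 passed by edgeR or DESeq2. By edgeR 3 of the 35 were under an unadjusted p of 0.05, against 32.3% of all genes.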

How the data were processed

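The authors trimmed 50-base single-end reads with Trimmomatic, mapped them with STAR to GRCm38 and counted them on the exons of GENCODE M13 genes with featureCounts 1.5.1, using strand. The deposited values are these raw counts per gene for each library, neither normalised nor pooled; reads that map to several places are left out by default settings. Of the 50686 genes in each file, 50462 matched a symbol in GENCODE M21, and 0 columns of values of other samples were left out.

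Counts of all 18 libraries (16452260 to 22664693 per library) were fitted together with edgeR 4.0.16 (limma 3.58.1, R 4.3.3), with 1 coefficient for each of 6 groups and no covariate. Genes were kept by filterByExpr (minimum count 10, minimum total 15), scaled by TMM and tested with glmQLFit and glmQLFTest, with Benjamini-Hochberg adjustment over the 12772 genes. A call required an adjusted p below 0.05 together with a fold above 2. CPM are TMM-scaled. The SE was taken from the F statistic, and the lower bound of a fold sets a group whose libraries hold at most 3 counts to 3 counts per library, as a limit of counting error only. Promoter windows were from RefSeq tables of GRCm38.p6. The fit was tested on simulated data.

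The genes named are Cdk8, members of the gene lists, the 15 largest rises and falls among the genes called whose groups did not overlap and whose mean reached 1 CPM, and the called interactions. The members and lists were chosen with earlier results of these data known. The alternatives were DESeq2 1.42.0 and other tests, scalings, filters and thresholds, a replicate block, other sets of libraries and leaving out each library. Figures were drawn with matplotlib 3.10.9. Some members of the lists enter the counts but are not reported here by name.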

Additional observations from a re-analysis of the deposited data

Results flagged for a closer look

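For 7 genes the effect of shCdk8-2 differed between SnxB and DMSO by the edgeR test of the interaction itself. At the same adjusted p, without a fold threshold, DESeq2 passed 19 genes. The values here are those of the 7 by edgeR. The log2 interaction, SnxB minus DMSO, was 1.71 for Ppp1r16b, -1.46 for Atp6v0a4, -0.55 for Acta2, -0.51 for Cbr2, -0.43 for Ereg, -0.37 for Gas7 and -0.31 for Pgbd5. Of 23 settings that gave a value, Acta2 passed an adjusted p of 0.05 in 23, Cbr2 in 15, Atp6v0a4 in 12, Ppp1r16b in 11, Ereg in 10, Gas7 in 8 and Pgbd5 in 4, with the same direction in all. Ereg, the gene of the EGF receptor ligand epiregulin, was at 150, 140 and 139 CPM in cntrl and 45.9, 48.5 and 45.7 CPM in shCdk8-2 under SnxB, and at 110, 102 and 109 CPM against 45.4, 48.6 and 47.0 CPM in DMSO. The shCdk8-2 libraries lay together in both treatments, and the cntrl libraries lay higher under SnxB than in DMSO.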

How the results depend on the processing

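Under SnxB the 1379 calls became 1344 with DESeq2, 1399 with the likelihood ratio test, 1374 with library totals, 1686 without a filter, 1115 with more than 1 CPM in 3 libraries, 1211 with only the groups compared and 1382 to 1406 leaving out 1 library. A test of a fold above 2 (glmTreat) gave 834 under SnxB, 831 in DMSO, 75 between the hairpins and 1059 for shCdk8-1, and no fold threshold gave 7236, 7289, 2674 and 7739. Leaving out 1 library gave 1399 to 1423 in DMSO, 242 to 263 between the hairpins and 1648 to 1696 for shCdk8-1, and -0.51 to -0.42 for Cdk8.

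The 2 called interactions are the least stable count. They became 3 with DESeq2, 9 without a filter, 7 without a fold threshold, 1 with only the groups compared, and 0 to 4 leaving out 1 library: 4 without cntrl SnxB library 2 and 0 without library 1 of any of the 4 groups, library 2 of shCdk8-2 in DMSO or library 3 of either group under SnxB. At an adjusted p under 0.01 edgeR called 0 (748 at an unadjusted p under 0.05). At an adjusted p under 0.05 glmTreat called 0 (15). Of 2 alternatives chosen after seeing the data, leaving out library 1 of both groups under SnxB gave 0 (596), and summing shCdk8-2 libraries 2 and 3, whose file headers repeat a number, gave 0 (533). Under SnxB these gave 1353 and 1409 calls.

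With the replicate block the calls were 1376 under SnxB and 1403 in DMSO, 2 interactions and -0.48 for Cdk8. Same-numbered libraries of cntrl and shCdk8-2 under SnxB had deviations correlated at 0.247, 0.0582 and 0.131, and library 2 of shCdk8-2 correlated best with library 3 of cntrl, so the numbers were not taken to pair samples.

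The settings glmTreat, adjusted p under 0.01 and no fold threshold were applied to counts of calls, not to named genes. Of 203 named genes that passed under SnxB, 192 kept direction and side of the threshold in every setting that gave them a value. The exceptions in at least 1 setting were Oas1a, Vim, Cdkn1a, Med13, Tapbpl, Egr1, Cxcl16, Igf1r, Socs1, Col2a1 and Axin2. Of 20 named genes that did not pass, 7 did in at least 1 setting: Mr1, Psmb10, Snai1, Stat2, Hspg2, Notch2 and Timp1. Signs reversed for Egr1 without cntrl library 2 and among genes that did not pass. Leaving out 1 library, the values ran from -8.05 to 0.36 for Egr1, -0.006425 to 0.0282 for Ccnc (-0.00173 without shCdk8-2 library 2), -0.1787 to 0.0004549 for Med12, -0.4015 to 0.04549 for Ppp1r16b, -0.03691 to 0.01891 for Axl, -0.008255 to 0.08061 for Bax, -0.177 to 0.08709 for Cd1d1, -0.0767 to 0.07936 for Ddx58, -0.435 to 0.002909 for Hspg2 and -0.1959 to 0.05622 for Mki67. Without a filter Ccnc was -0.01014 and Acta2 -0.009498, with library totals Axl was 0.05239, Cd1d1 0.04894 and Ddx58 0.0452, with the summed libraries Ccnc was -0.003412, and without both libraries 1 Acta2 was -0.001275, Axl 0.00957, Cd1d1 0.0497 and Ddx58 0.08089. Library totals moved the median of all genes to 0.0667. The cause of these changes was not tested.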

Other observations

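Of 12 smooth muscle and contractile genes tested, 3 rose, 5 fell and 4 did not pass under SnxB. Mylk, the myosin light chain kinase gene, went from 59.4, 52.2 and 51.9 CPM in cntrl to 8.23, 10.0 and 8.98 CPM in shCdk8-2 (log2 fold change -2.59 ± 0.101), while the light chain gene Myl9 rose by 1.18 ± 0.111 and the actin gene Actg2 by 1.02 ± 0.175. Against shCdk8-1 under SnxB, 8 of the 12 were higher in shCdk8-2 and 1 was lower, where 10.6% and 10.3% of all genes were. Acta2 was higher by 0.90 (adjusted p = 3.46e-11 by edgeR) in that comparison.

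Of 28 glycolysis and hypoxia genes tested, 7 rose, 9 fell and 12 did not pass, and the list median was 0.0628. The vasodilator peptide gene Adm, a usual target of hypoxia signalling, fell by 0.83 ± 0.0597 and the hexokinase gene Hk1 by 0.53 ± 0.0469, while Ldha and Hif1a rose by 0.20 ± 0.0413 and 0.21 ± 0.0364.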
